A study of Brachypodium distachyon with 214 samples.

Results

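Bradi5g18277, on chromosome 5, and Bradi1g53680, on chromosome 1, are a regulator and a target that the study named as a pair. They were selected on earlier results of these data, for strong covariation in every group of plants, and they are 2 of the 32523 rows of the count table. The study gave Bradi5g18277 as a predicted serine-type endopeptidase and Bradi1g53680 as a predicted zinc transporter. Messenger RNA of leaf tissue of Brachypodium distachyon, an annual grass, was counted plant by plant with 3′ tag sequencing, in which each transcript gives a short read from its 3′ end. Bd21, the accession of the reference genome, and Bd3-1 are inbred lines. Control plants were held at 85% of field capacity, the water a soil keeps once it has drained freely. Droughted plants dried for 6 days from day 33 after sowing, to 55% of field capacity. The 4 groups were 48 control and 49 droughted Bd21 plants and 58 control and 58 droughted Bd3-1 plants.

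Serine-type endopeptidases cut proteins inside the chain with a serine in the active site. In leaves, members of this large class take part in protein turnover, in defence and in the breakdown of protein as a leaf ages. Zinc transporters move zinc across membranes. Plants use them to load zinc into cells and vacuoles and to remobilise it from older leaves to growing tissue and grain. Neither locus has a described role in the tables used here beyond these predicted classes. The naming as regulator and target comes from the study's causal inference within a set of co-expressed genes. From allele-specific expression in hybrids of the accessions, in libraries not used here, the study also proposes that Bradi1g53680 is under trans-acting control, from another locus.

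A further library, labelled Bd3-1 drought replicate 59, was left out of all values unless stated. On a scale set by 453 genes that differed between the accessions under control watering, where the mean of Bd21 control plants is 0 and that of Bd3-1 control plants is 1, it scored -0.0725. The Bd21 libraries lay between -0.149 and 0.120 and the other 58 droughted Bd3-1 libraries between 0.849 and 1.02. It held 30.4 normalized counts of Bradi5g18277 and 75.9 of Bradi1g53680, below the lowest of the other droughted Bd3-1 plants in both genes. Total counts ranged from 0.525 to 8.37 M per library with a median of 1.92 M, and the deepest library, from a Bd21 control plant, was followed by one of 3.05 M.

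Both genes were higher in Bd3-1 than in Bd21 in either watering regime, and both rose with drought in Bd3-1. In Bd21 neither drought effect passed the test. All levels are counts divided by relative log expression (RLE) size factors, which put libraries of different depth on 1 scale. Bd3-1 reads, like Bd21 reads, were mapped on Bd21 transcripts, and the part of sequence differences in the contrasts between accessions was not tested. Since bulk leaf tissue was measured, a change in the number of cells that express a gene cannot be told apart from a change in RNA per cell.

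Bradi5g18277, the endopeptidase gene, had a lowest, median and highest count of 9.21, 35.5 and 149 in Bd21 control plants and of 13.5, 45.9 and 112 in droughted Bd21. In Bd3-1 control plants these values were 20.8, 167 and 459, and in droughted Bd3-1 they were 82.3, 299 and 670.5. The accessions overlapped little under drought, where 56 of 58 Bd3-1 plants lay above every Bd21 plant. Under control watering 32 of 58 did so. The group means were 44.8 ± 30.8 (SD, n = 48), 50.2 ± 20.3 (n = 49), 182 ± 95.1 (n = 58) and 319 ± 139 (n = 58) in that order.

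Bradi1g53680, the zinc transporter gene, had a lowest, median and highest count of 11.5, 87.9 and 241 in Bd21 control plants and of 24.2, 103 and 232 in droughted Bd21. The values were 50.0, 243 and 641 in Bd3-1 control plants and 126, 363 and 700.0 in droughted Bd3-1. The order of the groups was the same as for Bradi5g18277, with wider overlap. Under drought 45 of 58 Bd3-1 plants exceeded every Bd21 plant, and under control watering 30 of 58 did. The group means were 98.3 ± 49.1 (n = 48), 105 ± 40.0 (n = 49), 266 ± 123 (n = 58) and 359.6 ± 138 (n = 58).

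**Figure D1:**
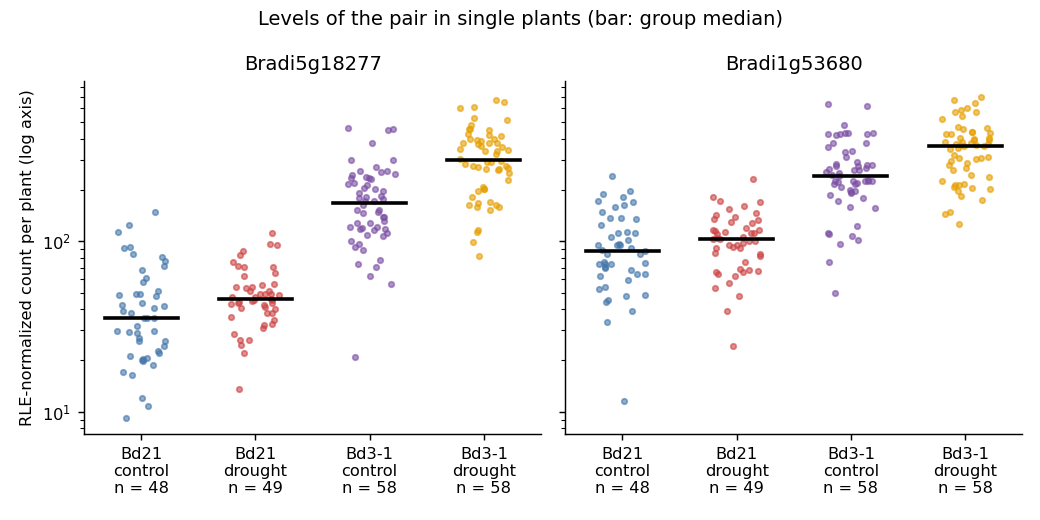
RLE-normalized counts of Bradi5g18277 (left) and Bradi1g53680 (right) in every plant of the 4 groups, on a shared log axis, with black bars at the group medians. Both Bd21 groups sit at medians of 35.5 and 45.9 counts for Bradi5g18277, while the Bd3-1 groups sit at 167 and 299.

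Differences between the groups were tested with edgeR's quasi-likelihood test on the 26157 genes detected in more than 10 libraries, with Benjamini-Hochberg adjustment over the whole set. In control plants Bradi5g18277 was 4.06-fold higher in Bd3-1 than in Bd21 (log2 fold change 2.02 ± 0.16 SE, edgeR adjusted p = 2.73e-22). In droughted plants it was 6.47-fold higher (2.69 ± 0.12, edgeR adjusted p = 1.03e-40). Only 1.47% of tested genes had a larger absolute fold change between the accessions under drought. Bradi1g53680 was 2.70-fold higher in Bd3-1 control plants (1.44 ± 0.13, edgeR adjusted p = 1.71e-17) and 3.48-fold higher in droughted Bd3-1 (1.80 ± 0.11, edgeR adjusted p = 4.73e-30). Genes that were higher in Bd3-1 made up 15.6% of all tested genes under control watering and 16.9% under drought, out of 33.6% and 36.1% that differed in either direction.

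With drought, Bradi5g18277 rose 1.77-fold in Bd3-1 (log2 fold change 0.82 ± 0.13 SE, edgeR adjusted p = 1.83e-08), and 49 of 58 droughted plants lay above the control median. Bradi1g53680 rose 1.36-fold in Bd3-1 (0.44 ± 0.11, edgeR adjusted p = 0.00078), and 44 of 58 droughted plants lay above the control median. In this contrast 15.4% of all tested genes rose, and 30.9% changed in either direction. The rise of the endopeptidase gene was thus larger on the log2 scale than that of the transporter gene, a difference that was not tested. In Bd21 the log2 fold changes were 0.16 ± 0.15 for Bradi5g18277 (edgeR adjusted p = 0.50, 95% interval -0.13 to 0.44) and 0.09 ± 0.13 for Bradi1g53680 (edgeR adjusted p = 0.701, 95% interval -0.16 to 0.33). In Bd21 11.6% of all tested genes rose, and 22.3% changed in either direction. With the library labelled Bd3-1 drought replicate 59 included, the drought effects in Bd3-1 were 0.79 and 0.42.

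The drought log2 fold change of Bd3-1 minus that of Bd21, the interaction of accession and treatment, was 0.67 ± 0.20 (SE) for Bradi5g18277 and 0.36 ± 0.17 for Bradi1g53680. The study picked both genes partly for such an interaction, so these values are a description with no test. The tests within each accession and treatment above draw on the same plants as that choice and are not independent of it.

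Within each group the levels also spread widely from plant to plant. The coefficient of variation of Bradi5g18277 was 68.6%, 40.4%, 52.4% and 43.7% in control and droughted Bd21 and control and droughted Bd3-1 plants. That of Bradi1g53680 was 49.9%, 38.3%, 46.4% and 38.4%. Counting error alone would give 14.5% in the shallowest case, Bradi5g18277 in Bd21 control plants, and 5.04% in the deepest, Bradi1g53680 in droughted Bd3-1. Both genes were thus among the more variable of the 11993 genes with a mean of at least 10 normalized counts. Over the 4 groups, 1.48% to 8.61% of those genes had a larger SD of log2 counts than Bradi5g18277, and 2.83% to 8.89% had a larger one than Bradi1g53680.

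The spread was shared between the genes, which is the feature they were chosen for and is therefore given without a test. On log2 counts plus a pseudocount of 1, Pearson's r of the pair was 0.853 in Bd21 control, 0.874 in Bd21 drought, 0.907 in Bd3-1 control and 0.912 in Bd3-1 drought plants, and Spearman's rho was 0.840, 0.831, 0.888 and 0.893. The points are plants of 1 group, and both genes of a plant come from the same library. Each gene was the closest partner of the other among 11991 further genes in every group, except that in droughted Bd3-1 Bradi2g22520 followed Bradi5g18277 as closely as Bradi1g53680 did (r 0.912 for both). Among all 44137710 pairs of the 9396 genes with at most 10% of estimates that were not whole, 247 pairs had an r of at least 0.853 in all 4 groups, and 109 genes took part in them.

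Single plants show the size of the shared swing. In Bd21 control plants, replicate 19 had the lowest counts of both genes, 9.21 of Bradi5g18277 and 11.5 of Bradi1g53680, and replicate 34 had the highest of both, 149 and 241. In droughted Bd21, replicate 44 was lowest in both with 13.5 and 24.2, and replicate 31 had 112 and 181. In Bd3-1 control plants, replicate 31 was lowest in both with 20.8 and 50.0, and replicate 15 had 459 and 480.5. In droughted Bd3-1, replicate 12 had 82.3 and 174 and replicate 1 had 670.5 and 545. The lowest plant of the endopeptidase gene was thus also the lowest plant of the transporter gene in 3 of the 4 groups and the fourth lowest in droughted Bd3-1.

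The slope of log2 Bradi1g53680 on log2 Bradi5g18277 was 0.74 ± 0.07 (SE) in Bd21 control, 0.92 ± 0.07 in Bd21 drought, 0.82 ± 0.05 in Bd3-1 control and 0.77 ± 0.05 in Bd3-1 drought plants. The SD of log2 counts was smaller for Bradi1g53680 than for Bradi5g18277 in 3 of the 4 groups and larger in droughted Bd21 (0.60 against 0.57). The log2 ratio of the transporter to the endopeptidase count was lower in the groups with higher levels, from 1.21 ± 0.47 (SD, n = 48) and 1.04 ± 0.29 (n = 49) in Bd21 control and drought plants to 0.58 ± 0.33 (n = 58) and 0.21 ± 0.28 (n = 58) in Bd3-1 control and drought plants. Bradi1g53680 had the higher count in 48 of 48 and 49 of 49 Bd21 plants, and in 55 of 58 control and 47 of 58 droughted Bd3-1 plants. Tag counts near the 3′ end do not grow with transcript length. These ratios compare tags, and whether both transcripts are tagged and mapped equally well was not tested.

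**Figure D2:**
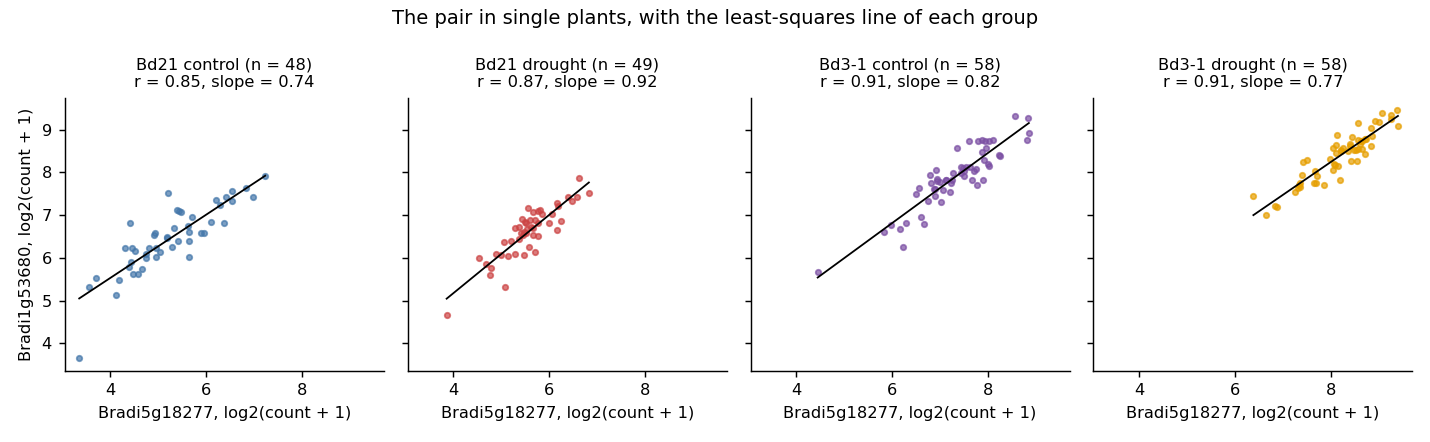
Log2 counts of Bradi1g53680 against those of Bradi5g18277, 1 point per plant and 1 panel per group on shared axes, with the least-squares line of each group. The points lie close to a rising line in every panel, with r from 0.853 to 0.912, and move up and to the right from Bd21 to Bd3-1.

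The covariation held within the 4 growth batches given in the study's sample table, each with 10 to 15 plants of a group. There r ranged from 0.819 to 0.898 in Bd21 control, 0.764 to 0.932 in Bd21 drought, 0.783 to 0.945 in Bd3-1 control and 0.761 to 0.953 in Bd3-1 drought plants. Within library plates with at least 6 plants of a group, r ranged from 0.748 to 0.952 over the 4 groups. Growth batches differed most in Bd3-1 control plants, where the batch means of Bradi5g18277 ran from 133 to 236 counts and those of Bradi1g53680 from 219 to 343. Without the 2 plants farthest from the median of Bradi5g18277, r was 0.837, 0.833, 0.877 and 0.905 in the order above, and with the library labelled Bd3-1 drought replicate 59 it was 0.927 in droughted Bd3-1.

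Library depth and the share of counts on plastid transcripts were related to both genes in each group, with 16 relations and 32 adjusted permutation p-values (Pearson's r and Spearman's rho, 100000 resamples, 2-sided, Benjamini-Hochberg). The relation to the log2 total count did not pass in any group, with r from -0.237 to 0.256 and a smallest adjusted p of 0.135 by permutation. The plastid share, which averaged 7.19% ± 0.938 in Bd3-1 control and 6.90% ± 0.921 in droughted Bd3-1, was inversely related to both genes in Bd3-1. In control plants r was -0.426 for Bradi5g18277 (permutation adjusted p = 0.00411) and -0.502 for Bradi1g53680 (permutation adjusted p = 0.00149), with rho of -0.348 and -0.435. In droughted plants r was -0.447 for Bradi5g18277 (permutation adjusted p = 0.00307) and -0.495 for Bradi1g53680 (permutation adjusted p = 0.00149), with rho of -0.478 and -0.506. Without the 2 plants of most extreme plastid share r remained between -0.469 and -0.385 in these relations. In Bd21 r lay between -0.308 and -0.189, and the smallest permutation adjusted p was 0.113. After removal of the plastid share by regression the r of the pair was 0.847, 0.861, 0.885 and 0.889 in the 4 groups, an alternative chosen after seeing the data. The part of the plastid share in the levels of either gene was not tested.

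A small set of genes followed both members in all 4 groups. Of 11991 other genes with a mean of at least 10 normalized counts, 7 had an r of at least 0.5 with both members in every group, which is 0.0584% of the genes scanned. They were Bradi2g44852, Bradi2g22520, Bradi3g17900, Bradi2g22530, Bradi1g37100, Bradi1g37667 and Bradi2g33110. Neither the study's text nor the tables used here describe these loci, which are therefore named by locus only. No gene ran against both members with an r of -0.5 or lower in every group (0 of 11991, 0.0%). The smaller of the 2 r values of a gene, taken in the group where it was lowest, was 0.539 for Bradi2g33110, the last gene inside the threshold, and 0.479 for Bradi2g61485, the first outside it.

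Bradi2g44852, on chromosome 2, followed most evenly, with the smaller r at 0.716, 0.806, 0.790 and 0.714 in control and droughted Bd21 and control and droughted Bd3-1 plants. Its lowest, median and highest counts were 0, 6.55 and 38.2 in Bd21 control and 0, 6.42 and 36.2 in Bd21 drought plants. In Bd3-1 they were 4.17, 32.1 and 112 under control watering and 10.9, 49.6 and 94.7 under drought. Many Bd21 plants thus had few counts of this gene, and the Bd3-1 groups reached higher. The locus next to it in the naming order, Bradi2g44856, with a mean of 3438 counts, ran against the pair, and most so in droughted Bd3-1 (r -0.711 with Bradi5g18277 and -0.725 with Bradi1g53680). Bradi2g44856 had the lowest r of all scanned genes with Bradi5g18277 in that group and also in Bd3-1 control plants (r -0.580). It is named after its values were seen.

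Bradi2g22520 and Bradi2g22530 are adjacent loci on chromosome 2, with no further row of the table between them. Bradi2g22520 was closer to Bradi5g18277 than to Bradi1g53680, with r of 0.845 and 0.695 in Bd21 control, 0.789 and 0.775 in Bd21 drought, 0.905 and 0.861 in Bd3-1 control and 0.912 and 0.894 in Bd3-1 drought plants. Its medians were 9.94, 18.9, 38.8 and 79.6 counts in these groups, and 6.13% of its estimates were not whole, as RSEM gives where reads match several transcripts. Bradi2g22530 had a smaller r of 0.672, 0.642, 0.708 and 0.849 and medians of 6.93, 12.9, 28.3 and 65.2 counts, and all of its estimates were whole. The r between the neighbours was 0.721, 0.653, 0.768 and 0.873. The highest count of Bradi2g22520 was 52.7 in Bd21 control and 184 in droughted Bd3-1 plants.

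The remaining followers were more abundant. Bradi3g17900 had medians of 330.2, 368, 511 and 668 counts in control and droughted Bd21 and control and droughted Bd3-1 plants, with a smaller r of 0.670, 0.744, 0.739 and 0.672. Bradi2g33110 had medians of 261, 269.8, 434 and 481 counts and was closer to Bradi5g18277 (r 0.749, 0.694, 0.731 and 0.684) than to Bradi1g53680 (r 0.539, 0.591, 0.591 and 0.601). Bradi1g37667 had medians of 91.1, 71.4, 175 and 199.6 counts, lower in droughted than in control Bd21. Bradi1g37100 had medians of 80.2, 73.1, 85.6 and 95.4 counts, nearly level over the groups, although its smaller r was 0.669, 0.635, 0.714 and 0.841.

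The followers also covaried with each other. Over their 21 pairs the median r was 0.619 in Bd21 control, 0.605 in Bd21 drought, 0.728 in Bd3-1 control and 0.739 in Bd3-1 drought plants, and the lowest was 0.314. Bradi5g18290, the next locus after Bradi5g18277 with a mean above 10 counts, had an r with it of 0.360, 0.222, -0.182 and -0.0900 in the 4 groups. The loci on either side of Bradi1g53680 had means of 5.87 and 1.94 counts, too few to read a shared pattern from.

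The followers were also picked in some groups and read in the others, although the pair itself was chosen on all 4. The 7 genes with an r of at least 0.5 with both members in the Bd21 groups were also past it in both Bd3-1 groups, 7 of 7, against 0.133% of all genes scanned. In the other direction, 16 genes were past it in both Bd3-1 groups and 7 of them in both Bd21 groups, which is 43.75% of them against 0.0584% of all genes. Choosing in the control groups gave 8 genes, of which 7 were past the threshold in both drought groups, against 0.0667% of all genes. Choosing in the drought groups gave 8 genes, of which 7 were past it in both control groups, again against 0.0667%. In every one of these choices the 7 genes are by definition the 7 followers. Only the number of genes chosen is new, and the choices are not separate results.

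**Figure D3:**
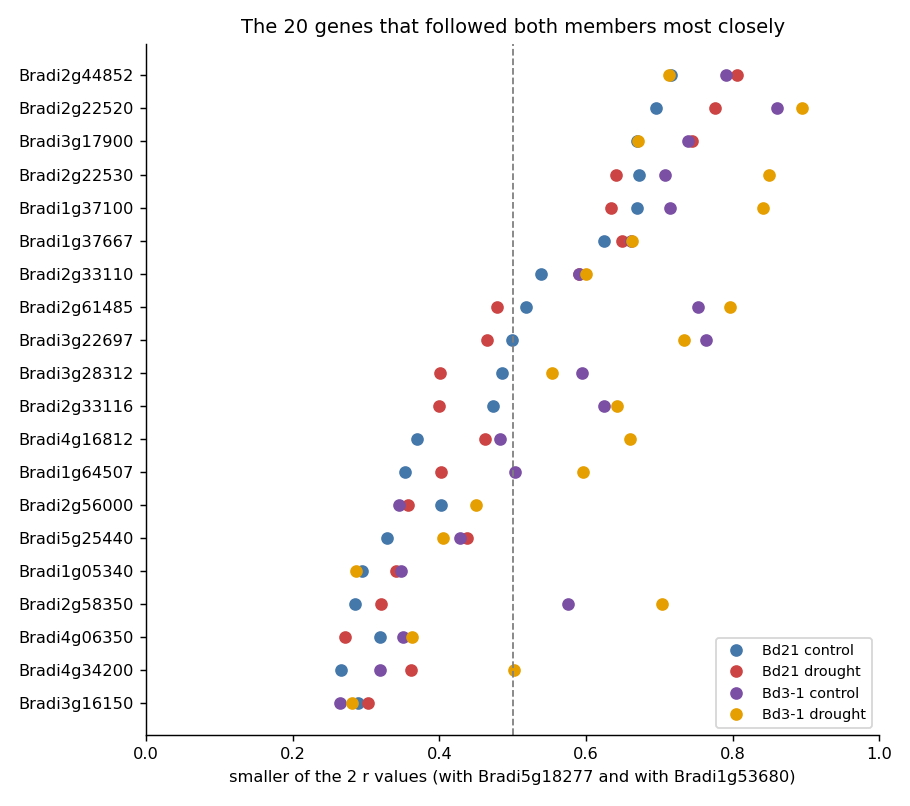
For each of the 20 genes closest to both members, the smaller of its 2 r values (with Bradi5g18277 and with Bradi1g53680) in each of the 4 groups, with a dashed line at 0.5. The 7 genes in the top rows lie right of the line in all groups, and from Bradi2g61485 down at least 1 group lies left of it.

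Several of the next genes in this order followed the pair more closely in Bd3-1 than in Bd21. Bradi2g61485 had a smaller r of 0.518 and 0.479 in Bd21 control and drought plants and of 0.752 and 0.796 in Bd3-1 control and drought plants. Bradi3g22697 had 0.499 and 0.465 in Bd21 against 0.763 and 0.733 in Bd3-1. Bradi2g33116, the locus next to the follower Bradi2g33110, had 0.473 and 0.40 against 0.625 and 0.643, but averaged 2.61 and 3.28 counts in the Bd21 groups, where counting error is large, against 15.6 and 27.8 in Bd3-1. Bradi4g16812 was likewise low in Bd21, with 3.17 and 2.94 counts, and 13.9% of its estimates were not whole. Bradi2g58350, at a mean of 1515 counts, had 0.285 and 0.321 in Bd21 and 0.575 and 0.704 in Bd3-1. The differences in r between the accessions were not tested. The other 8 of the 20 genes had smaller r values between 0.264 and 0.596 over all groups, and not all of them were closer in Bd3-1. Bradi2g56000 had 0.402 and 0.358 in Bd21 against 0.345 and 0.450 in Bd3-1. Bradi3g16150 had 0.288 and 0.303 against 0.264 and 0.282.

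The 5 genes with the most even inverse relation were Bradi2g30490, Bradi4g37856, Bradi4g44410, Bradi2g12790 and Bradi1g60100, whose r with the members was at or below -0.339 in every group. Bradi4g44410 was the most abundant, with means of 1527 ± 437 (SD, n = 48), 3161 ± 1017 (n = 49), 659 ± 247 (n = 58) and 1207 ± 402 (n = 58) counts in control and droughted Bd21 and control and droughted Bd3-1 plants. Its larger r was -0.538, -0.515, -0.359 and -0.454 in these groups. It was lower in Bd3-1 than in Bd21 but rose with drought in both accessions, by 1.05 ± 0.09 in Bd21 (edgeR adjusted p = 1.88e-18) and 0.87 ± 0.09 in Bd3-1 (edgeR adjusted p = 5.76e-16), so that between treatments it moved in the direction of the pair. Of the 5 genes, 4 were lower in Bd3-1 in control plants and 4 in droughted plants, against 18.0% and 19.2% of all tested genes. In Bradi1g60100, 80.3% of estimates were not whole, so its counts are uncertain.

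The between-group effects of the 7 followers were not used to choose them. All 7 were higher in Bd3-1 than in Bd21 under drought, and 6 of 7 under control watering, against 16.9% and 15.6% of all tested genes. Their median log2 fold change was 1.47 in droughted and 0.93 in control plants, against -0.01 over all genes in either contrast. The largest were those of Bradi2g44852, 2.46 ± 0.16 (SE) under drought and 1.95 ± 0.18 under control watering. Bradi2g22530 followed with 2.22 ± 0.13 under drought and Bradi2g22520 with 2.09 ± 0.13. Bradi2g44852 averaged 9.50 and 9.58 counts in control and droughted Bd21, so the minimum mean of 10 counts kept it only through Bd3-1. Its difference between the accessions is given as a description, and the counts of followers above include it. Bradi1g37100 was the exception in control plants, with 0.06 ± 0.06 (edgeR adjusted p = 0.472), and was 1.29-fold higher in droughted Bd3-1. The shares of all tested genes, here and beside other picked genes, also cover genes with a mean under 10 counts, which were not scanned. Shares among the scanned genes alone were not computed, so these comparisons are not at like abundance.

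With drought, 6 of the 7 followers rose in Bd3-1 and none fell, against 15.4% of all tested genes that rose. Bradi2g22530 rose 2.38-fold (log2 fold change 1.25 ± 0.13 SE, edgeR adjusted p = 1.65e-15) and Bradi2g22520 1.92-fold (0.94 ± 0.12, edgeR adjusted p = 1.37e-10). Bradi2g44852 rose 1.43-fold, Bradi3g17900 1.31-fold, Bradi2g33110 1.14-fold and Bradi1g37100 1.11-fold. The call of Bradi1g37100 (edgeR adjusted p = 0.043) was lost when the library labelled Bd3-1 drought replicate 59 was included (edgeR adjusted p = 0.0634). Bradi1g37667 had a log2 fold change of 0.13 ± 0.08 (edgeR adjusted p = 0.215). In Bd21, 2 of the 7 rose (11.6% of all genes did) and 1 fell (10.7% of all genes did). The neighbours Bradi2g22520 and Bradi2g22530 rose there by 0.62 ± 0.17 and 0.67 ± 0.18, unlike the pair itself, and Bradi1g37667 fell by 0.40.

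The drought response differed between the accessions in 2 of the 7 followers at an adjusted p under 0.1, against 1.7% of all tested genes in either direction and 1.11% with the higher value in Bd3-1. The interaction of Bradi1g37667 was 0.55 ± 0.12 (SE, edgeR adjusted p = 0.00161) and that of Bradi1g37100 was 0.30 ± 0.09 (edgeR adjusted p = 0.0477). Both had a lower mean in droughted than in control Bd21 and a higher one in droughted than in control Bd3-1. The interaction of the other 5 followers had the same sign and did not pass, from 0.17 for Bradi2g33110 to 0.59 ± 0.23 for Bradi2g22530 (edgeR adjusted p = 0.263). The interaction of Bradi3g17900 was 0.28 ± 0.09 (edgeR adjusted p = 0.126) and passed without the deepest library (edgeR adjusted p = 0.0873).

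**Figure D4:**
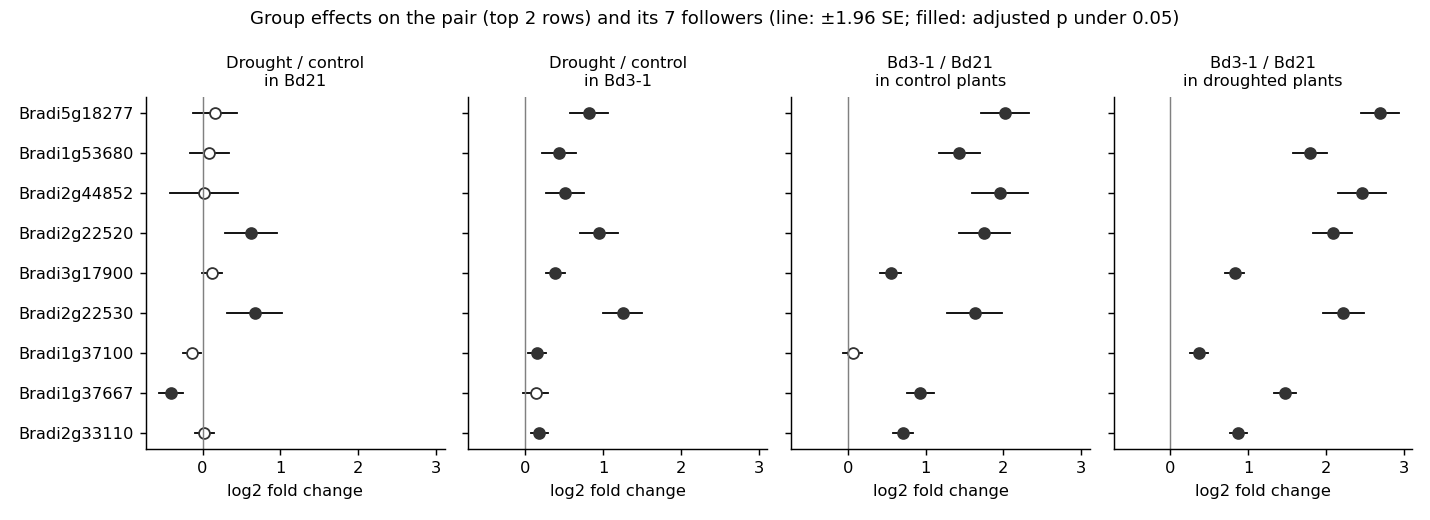
Log2 fold changes (points) with 95% intervals (lines) of the pair, in the top rows, and the 7 followers in 4 contrasts, with filled points for an edgeR adjusted p under 0.05. The points of the accession contrasts lie right of 0 in every row, while the points for drought in Bd21 lie on both sides, from -0.40 to 0.67.

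Droughted Bd3-1 stood out by the number of genes that moved with the pair. There 97 genes had an r of at least 0.5 with both members (0.809% of those scanned) and 126 had an r of -0.5 or lower (1.05%). The counts were 13 and 5 in Bd21 control, 8 and 1 in Bd21 drought and 19 and 2 in Bd3-1 control plants, which is 0.108%, 0.0667% and 0.158% of genes for the positive relations and 0.0417%, 0.00834% and 0.0167% for the inverse ones. Both Bd3-1 groups had 58 plants. The counts moved with the share of plastid counts: with that share removed by regression they were 28 and 14 in droughted Bd3-1, against 8, 9 and 13 positive genes in the other 3 groups. They also depended on 1 library, since with the library labelled Bd3-1 drought replicate 59 they were 114 and 50. Of the 126 inverse genes, 5 were rows of plastid coding sequences. Bradi1g05776 had the same mean (202 counts) and the same r (-0.569 and -0.606) as 1 of these plastid rows. Bradi1g39202, Bradi2g13100 and Bradi5g23851 likewise had values equal to each other (mean 772 counts). The 126 are thus not all separate measurements, and rows named as nuclear can carry the same counts as plastid rows. The difference between the groups in these counts was not tested.

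Of the 97 genes, 96 had a positive r with both members in Bd3-1 control plants, 81 in Bd21 drought and 69 in Bd21 control plants, against 42.3%, 40.1% and 38.8% of all genes scanned. The relation was weaker there, with a median smaller r of 0.311, 0.170 and 0.118. Of the 126 inverse genes, 125 had a negative r with both in Bd3-1 control plants, 103 in Bd21 drought and 72 in Bd21 control plants, against 42.7%, 42.8% and 38.3% of all genes scanned. Between the accessions, 77 of the 97 genes were higher in Bd3-1 under drought (79.4%, against 16.9% of all tested genes) and 4 lower. Under control watering 69 were higher (71.1%, against 15.6%) and 4 lower. Of the 126 inverse genes, 33 were higher and 27 lower in Bd3-1 under drought, and 8 higher and 38 lower under control watering. The 97 genes were picked in droughted Bd3-1, and low counts limit r, so a higher level there was partly built in. The minimum mean count also kept some, such as Bradi4g16812, only through Bd3-1. These contrasts are therefore a description. With drought in Bd3-1, 44 of the 97 rose (45.4%, against 15.4% of all genes) and 16 fell. Of the 126 inverse genes, 53 fell with drought in Bd3-1 (42.1%, against 15.4%) and 23 rose, and in Bd21 70 fell (55.6%, against 10.7%) and 7 rose. Both sets were picked in droughted Bd3-1, so the counts with drought in Bd3-1 are a description too. Some of the 126 rows carry the same counts, so these are not counts of separate genes.

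NAC genes, a stay-green gene and a chlorophyll a-b binding gene were part of this wider set. NAC proteins are plant transcription factors, several of which promote leaf senescence in other species, and stay-green proteins take part in the breakdown of chlorophyll when a leaf ages. The study listed 5 NAC genes, a stay-green gene and a chlorophyll a-b binding gene as members of a set specific to Bd3-1. That list was chosen on these plants and is no independent evidence of its direction. Of its 7 genes 6 were abundant enough to be scanned. In droughted Bd3-1, 4 of the 6 had an r of at least 0.5 with both members (0.809% of all genes scanned did). Of the 6, 1 had an r of -0.5 or lower (1.05% of all genes scanned did). In each of the other groups no gene of the list passed either threshold. The list was drawn as specific to Bd3-1, so closer covariation there than in Bd21 was partly built into it.

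The NAC gene Bradi1g63600 had r of 0.688 and 0.694 with Bradi5g18277 and Bradi1g53680 in droughted Bd3-1, Bradi4g02060 had 0.631 and 0.611, and Bradi1g17480 had 0.60 and 0.583. A further NAC gene, Bradi4g44000, had 0.441 and 0.512 at a mean of 12.0 counts. The stay-green gene Bradi4g36060 had 0.617 and 0.695 in droughted Bd3-1 and 0.533 and 0.455 in Bd3-1 control plants. The chlorophyll a-b binding gene Bradi4g31257 ran the other way, with -0.591 and -0.666 in droughted Bd3-1, -0.412 and -0.394 in Bd3-1 control, and 0.128 and 0.0142 in Bd21 control plants. With the plastid share removed by regression, r in droughted Bd3-1 was 0.608 and 0.604 for Bradi1g63600, 0.542 and 0.507 for Bradi4g02060, 0.507 and 0.593 for Bradi4g36060 and -0.463 and -0.545 for Bradi4g31257. Bradi1g17480 was then at 0.474 and 0.429, and neither it nor Bradi4g31257 was past the threshold with both members.

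In level, Bradi4g36060 had a lowest, median and highest count of 17.0, 50.9 and 99.3 in Bd3-1 control and 18.6, 66.5 and 197 in droughted Bd3-1 plants, and rose 1.43-fold (edgeR adjusted p = 4.16e-05). Its droughted plants spread over a wider range, within which most control plants also lay. Bradi4g02060 rose 1.62-fold in Bd3-1 and 1.92-fold in Bd21, and Bradi1g63600 rose 1.45-fold and 1.39-fold. Bradi1g17480 had a log2 fold change of -0.06 ± 0.08 (SE) with drought in Bd3-1 (edgeR adjusted p = 0.614). Bradi4g31257 had -0.16 ± 0.07 there (edgeR adjusted p = 0.081), which passed with growth batch and plate as terms (edgeR adjusted p = 0.0399). The NAC genes Bradi1g63600, Bradi4g02060 and Bradi1g17480 and the stay-green gene were higher in Bd3-1 than in Bd21 in both watering regimes, by 1.18-fold to 2.28-fold. The smallest of these, the stay-green gene Bradi4g36060 in control plants (edgeR adjusted p = 0.0464), was lost without the deepest library (edgeR adjusted p = 0.0629).

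**Figure D5:**
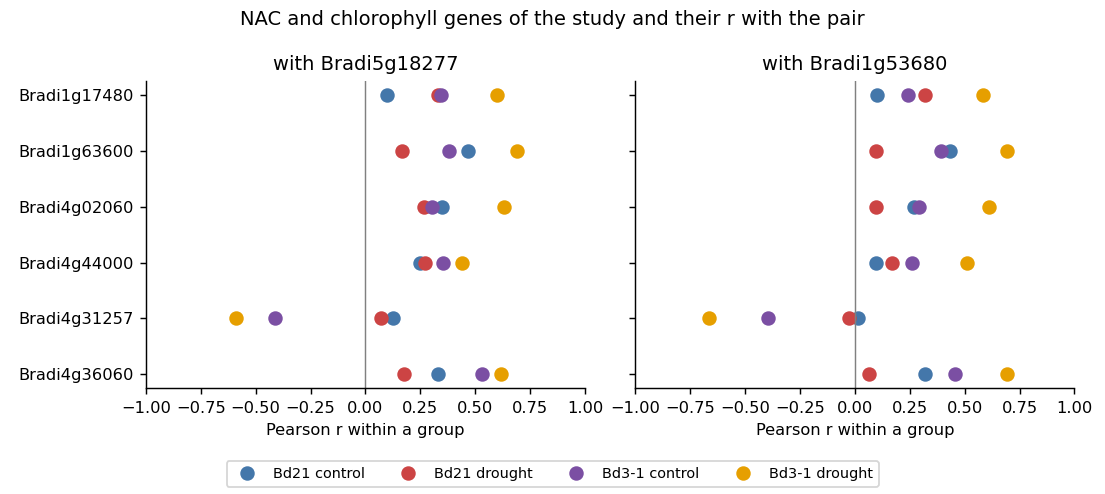
Pearson's r of 6 NAC and chlorophyll genes listed by the study with Bradi5g18277 (left) and with Bradi1g53680 (right), 1 point per group. The points of droughted Bd3-1 lie farthest from 0 in every row, from 0.441 to 0.695 for the NAC and stay-green genes and at -0.591 and -0.666 for Bradi4g31257.

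Genes of the other lists drawn from the study stayed under the threshold, which few genes passed in any group (at most 0.809% positive and 1.05% inverse). None of 12 scanned genes of abscisic acid and drought signalling, 6 clock genes, 2 genes of the dehydrin list, 9 genes of light and carbon metabolism, 3 genes of other pairs the study named and 8 genes of phenylpropanoid metabolism and wounding passed an r of 0.5 in either direction with both members in any group. The abscisic acid and drought genes, which stand for the hormone response to drying soil, had r values between -0.382 and 0.282 over all groups. The clock genes lay between -0.301 and 0.298, and the 2 scanned genes of the dehydrin list, neither of which is a dehydrin gene itself, between -0.305 and 0.190. In droughted Bd3-1 the median r of the abscisic acid and drought genes was 0.0374 with Bradi5g18277 and 0.0495 with Bradi1g53680. It was 0.609 and 0.597 for the NAC and chlorophyll genes, which the study grouped by covariation in Bd3-1 plants of these data. That contrast is therefore a description.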

How the data were processed

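Per the labels and the study's methods, the authors trimmed reads with Trimmomatic 0.39 and cutadapt 2.10, aligned them with Bowtie2 2.4.0 to Bd21 transcripts and the plastid genome, removed duplicates by molecular identifier, and deposited RSEM 1.3.3 expected counts, not normalized. Of the estimates above 0, 86.3% were whole. Groups came from the labels. Growth batch and plate came from the study's sample table.

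Counts were rounded and tested with edgeR 4.0.16 in R 4.3.3 (TMM factors, quasi-likelihood F-test, Benjamini-Hochberg over 26157 genes, threshold 0.05, or 0.1 for the interaction). The script was tested on simulated data. Correlations used log2(RLE-normalized count + 1) in Python 3.11.15. Each plant was 1 library. Named genes were both members, the 20 genes with the largest smaller r at its lowest over the groups, the 5 with the lowest larger r at its highest, and genes of the study's lists past an r of 0.5 in size with both members. The members and lists were chosen with earlier results of these data known. DESeq2 1.42.0, other normalizations, filters, batch terms, a replicate block and residuals were alternatives. Of the locus names, 0 matched the reference table, so no coordinates or sequences are given.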

Additional observations from a re-analysis of the deposited data

Results flagged for a closer look

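Of the 20 genes closest to the pair, 7 had a drought response that differed between the accessions by the interaction test of edgeR, at a Benjamini-Hochberg adjusted p under 0.1. Of all tested genes, which include those under the minimum mean of 10 counts, 1.7% did. The log2 fold change in Bd3-1 minus that in Bd21 was 1.27 for Bradi4g16812 (edgeR adjusted p = 0.0312), 0.70 for Bradi3g22697 (edgeR adjusted p = 0.0255) and 0.55 for the follower Bradi1g37667 (edgeR adjusted p = 0.00161). It was 0.52 for Bradi3g28312 (edgeR adjusted p = 0.0127), 0.30 for the follower Bradi1g37100 (edgeR adjusted p = 0.0477) and 0.25 for Bradi1g64507 (edgeR adjusted p = 0.0102). Bradi5g25440 had -0.49 (edgeR adjusted p = 0.00206), with a steeper fall in Bd3-1 than in Bd21, and 14.6% of its estimates were not whole. Bradi4g16812 averaged 3.17 and 2.94 counts in the Bd21 groups and 12.1 and 26.7 in the Bd3-1 groups, so it was kept by the minimum mean of 10 counts only through Bd3-1, where it was high, and its difference between the accessions is given as a description.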

How the results depend on the processing

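The group differences of the pair kept their direction and their side of the threshold under 7 alternatives per contrast. With drought in Bd3-1 the log2 fold change of Bradi5g18277 ranged from 0.79 to 0.84 and that of Bradi1g53680 from 0.42 to 0.47. Replicate numbers were not taken as pairs in the main tests. The median r of same-numbered deviations was 0.127 between the Bd21 groups and 0.109 between the Bd3-1 groups. This r was over 0.1 in 27 of 48 and 30 of 58 numbers. Same-numbered libraries shared a plate in 47 of 48 and 57 of 58 numbers, and a growth batch in 7 and 10. No r of differently numbered libraries was set beside these values, so whether the numbers pair the plants was not tested. With the replicate block, Bradi5g18277 had 0.26 in Bd21 (edgeR adjusted p = 0.149) and 0.84 in Bd3-1, and no call of the pair changed. With edgeR's filterByExpr, which tests fewer genes, 2557 instead of 4708 genes were lower in Bd3-1 control plants. In droughted plants 2945 instead of 4419 were higher and 2978 instead of 5025 lower. The number of followers was 11 at an r of 0.4, 6 at 0.6 and 1 at 0.7. Bradi2g33110 dropped out with Spearman's rho and with residuals on the plastid share, and Bradi2g61485 joined when values were centred within growth batch and plate. The interaction of Bradi3g17900 also passed with filterByExpr (edgeR adjusted p = 0.0982) and with batch terms (edgeR adjusted p = 0.0911). Low counts limit r for followers with under 10 counts in Bd21.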
